A study of Callithrix jacchus with 20 samples.

Results

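The genes of the surface proteins that mark or are used to sort primate primordial germ cell-like cells (PGCLCs) were followed through the differentiation of marmoset induced pluripotent stem cells (cjiPSCs). They were CXCR4, ITGA6, EPCAM, KIT and PDPN, chosen by their symbols. All 5 were among the 25100 genes of the count table, and all 5 passed the filter on low counts that left 15795 genes for testing. CXCR4 and ITGA6 encode the antigens CXCR4 and INTα6 that were stained to isolate the cells according to the study's methods, whereas the sample labels name EpCAM beside one or the other of them. No gate used KIT or PDPN.

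CXCR4 is a G protein-coupled receptor for the chemokine CXCL12 and guides the migration of germ cells towards the gonad. ITGA6 is the α6 chain of laminin receptors, which pairs with the β1 or β4 chain, and EPCAM is an adhesion molecule of epithelia that is also found on pluripotent and germ cells. KIT is the receptor tyrosine kinase for stem cell factor (SCF), the product of KITLG, and is needed for the survival of migrating germ cells. PDPN, or podoplanin, is a mucin-like membrane glycoprotein that binds the receptor CLEC-2 and the ezrin family.

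The samples were 20 libraries of poly(A) RNA from 10 conditions of a single cjiPSC line, DPZ_cjiPSC#2, with 2 biological replicates in each condition. The cjiPSCs were kept either in TESR medium or in cjPSCM, a medium with CHIR, A419259, IWR-1, vitamin C, LIF, TGFβ and FGF2. Precursors of mesendoderm (pre-ME) were made from both cultures within 24 h in medium with 3 μM of the GSK3 inhibitor CHIR and a ROCK inhibitor, either with 100 ng/ml Activin A (ActA) or without it. Pre-ME from cjPSCM cultures were then aggregated with BMP4, SCF, EGF, LIF and the ROCK inhibitor, and the embryoid bodies were sorted on day 4 into double-positive cells, called cjPGCLCs, and double-negative cells, called somatic cells. The cjiPSCs and pre-ME were not sorted, and no sorted cells came from TESR cultures. All values describe 1 line. A p-value here sets a difference against the spread between replicates, which was estimated in 1 fit over all 10 conditions.

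Between 4784783 and 22066961 reads per library were counted on genes, with 4784783 to 14216460 in the 8 sorted libraries. Levels are the deposited normalised counts, which are counts divided by a size factor of the library, and they compare samples for a gene but not genes with each other because they are not divided by length. Differences are log2 fold changes from 1 edgeR quasi-likelihood fit over all libraries, given with their SE, and "rose" and "fell" mean an adjusted p under 0.05 over all tested genes. The smallest count behind any value of the 5 genes was 14, for CXCR4. In bulk RNA, fewer cells that express a gene and less RNA per cell cannot be told apart.

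The labels were first checked with marker lists. Between the sorted cells 3.68% of all tested genes were higher and 1.16% lower in cjPGCLCs with ActA, and 6.67% were higher and 2.97% lower without ActA. Of the 12 tested germ cell markers, 6 were higher in cjPGCLCs than in somatic cells in both ActA conditions, and the other 6 did not pass. These were SOX17, TFAP2C, PRDM1, NANOS3, DPPA3 and KLF4. NANOS3, a germ cell-specific RNA-binding protein, had 42.3 and 14.2 normalised counts in cjPGCLCs with ActA and 61.5 and 44.1 without ActA, against 0 to 3.54 in the 4 somatic libraries. The late germ cell gene DDX4 was at 0 counts in all 4 cjPGCLC libraries, which at 3 counts allows a level of up to 4.73 normalised counts. The summed level of the 14 germ cell markers was 3230.2 to 3788 in cjPGCLCs against 2035 to 2107 in somatic cells with ActA, and 5437 to 5685 against 2133 to 2424 without ActA. In unsorted cjPSCM cultures the sum was 5683 to 6396 in cjiPSCs, 5143 to 5286 in pre-ME with ActA and 3486 to 3757 without ActA. It was therefore not particular to cjPGCLCs. From these cjiPSCs to cjPGCLCs 3 of the 12 tested markers rose and 4 fell with ActA, where 50.9% of all genes changed. Without ActA 4 rose and 4 fell (52.5% of all).

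Endoderm markers moved with the sort as well. Of 7 tested, 4 were higher in cjPGCLCs with ActA (3.68% of all genes) and 5 without ActA (6.67% of all), and the rest did not pass. FOXA2, a transcription factor of definitive endoderm, had 191.9 and 83.9 normalised counts in cjPGCLCs with ActA and 518 and 356 without ActA, and it was at 0 counts in 3 of the 4 somatic libraries. HNF4A and APOA1 were also higher in both conditions, while TTR and AFP stayed at or below 19.7 normalised counts and CER1 at or below 0.759 in cjPGCLCs. The summed level of the 11 endoderm markers was 3816 to 6605 in cjPGCLCs against 2876 to 3933 in somatic cells with ActA, which overlapped, and 6451 to 10495 against 4842 to 5537 without ActA. Their part in the differences of CXCR4, ITGA6 and EPCAM between the sorted cells was not tested.

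Of 11 tested amnion and trophoblast markers, 2 were higher in cjPGCLCs with ActA (3.68% of all genes) and 4 without ActA (6.67% of all genes), TFAP2B and GATA2 in both, and the rest did not pass. The list's summed level was 16412 to 18585 normalised counts in cjPGCLCs against 11151 to 14255 in somatic cells with ActA, and 16550 to 17587 against 11029 to 13053 without ActA. The 14 tested mesoderm markers had a median difference of 0.10 with ActA, and without ActA 6 of them were lower in cjPGCLCs (2.97% of all), among them HAND2 and COL1A1. Their summed level overlapped with ActA, at 49862 to 60612 against 49131 to 64640, and was 36078 to 43774 against 59249 to 67692 without ActA. The endothelial and blood list had 2 higher and 1 lower of 14 with ActA, where 3.68% and 1.16% of all genes were, and 3 higher and 3 lower without ActA, where 6.67% and 2.97% were. The part of these genes in the differences between the sorted cells was not tested either. Among the unsorted cells, POU5F1, the gene of the pluripotency factor OCT4, was between 1049 and 2926 normalised counts in the 4 cjiPSC libraries. The mesendoderm genes TBXT and MIXL1 rose in pre-ME with ActA from TESR cultures, by 2.64 and 4.67 on the log2 scale. In pre-ME from cjPSCM cultures TBXT stayed at or below 1.67 normalised counts and MIXL1 between 4.13 and 19.2. Of the 14 tested mesoderm markers, 4 rose and 1 fell in pre-ME with ActA from TESR cultures, where 34.5% of all genes changed. In pre-ME with ActA from cjPSCM cultures 2 rose and 2 fell (17.7% of all). Without ActA 1 rose and 2 fell in TESR cultures (36.6% of all), and 2 rose and 4 fell in cjPSCM cultures (38.0% of all). The paper reports EOMES as up-regulated in pre-ME with ActA from cjPSCM.

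CXCR4 was lowest in cjiPSCs and rose in pre-ME. On day 4 it rose again in cjPGCLCs but not in somatic cells, populations gated on CXCR4 by the methods and treatment labels. Its normalised counts in cjiPSCs were 14.9 and 20.8 in TESR medium, compared with 22.6 and 44.5 in cjPSCM. In pre-ME from TESR cultures they were 169.7 and 287 with ActA and 294 and 482 without ActA. In pre-ME from cjPSCM cultures they were 82.6 and 88.5 with ActA and 141 and 144 without ActA. Every pre-ME library therefore lay above every cjiPSC library. Between the cjiPSC media the difference was 0.89 ± 0.42 (adjusted p = 0.106), and it was called at 1.36 (adjusted p = 0.0463) without replicate 1 in cjPSCM.

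In the sorted cells CXCR4 stood at 1317 and 1275 normalised counts in cjPGCLCs with ActA and at 1183 and 1128 without ActA. In somatic cells it was 76.1 and 58.1 with ActA and 53.0 and 49.5 without ActA. The 4 cjPGCLC libraries were higher than all other libraries, and the 4 somatic libraries lay between the cjiPSCs and the pre-ME. In the order of the 10 condition means, from cjiPSCs in TESR medium (17.9) to cjPGCLCs with ActA (1296), the libraries of neighbouring conditions did not overlap at any step.

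**Figure D1:**
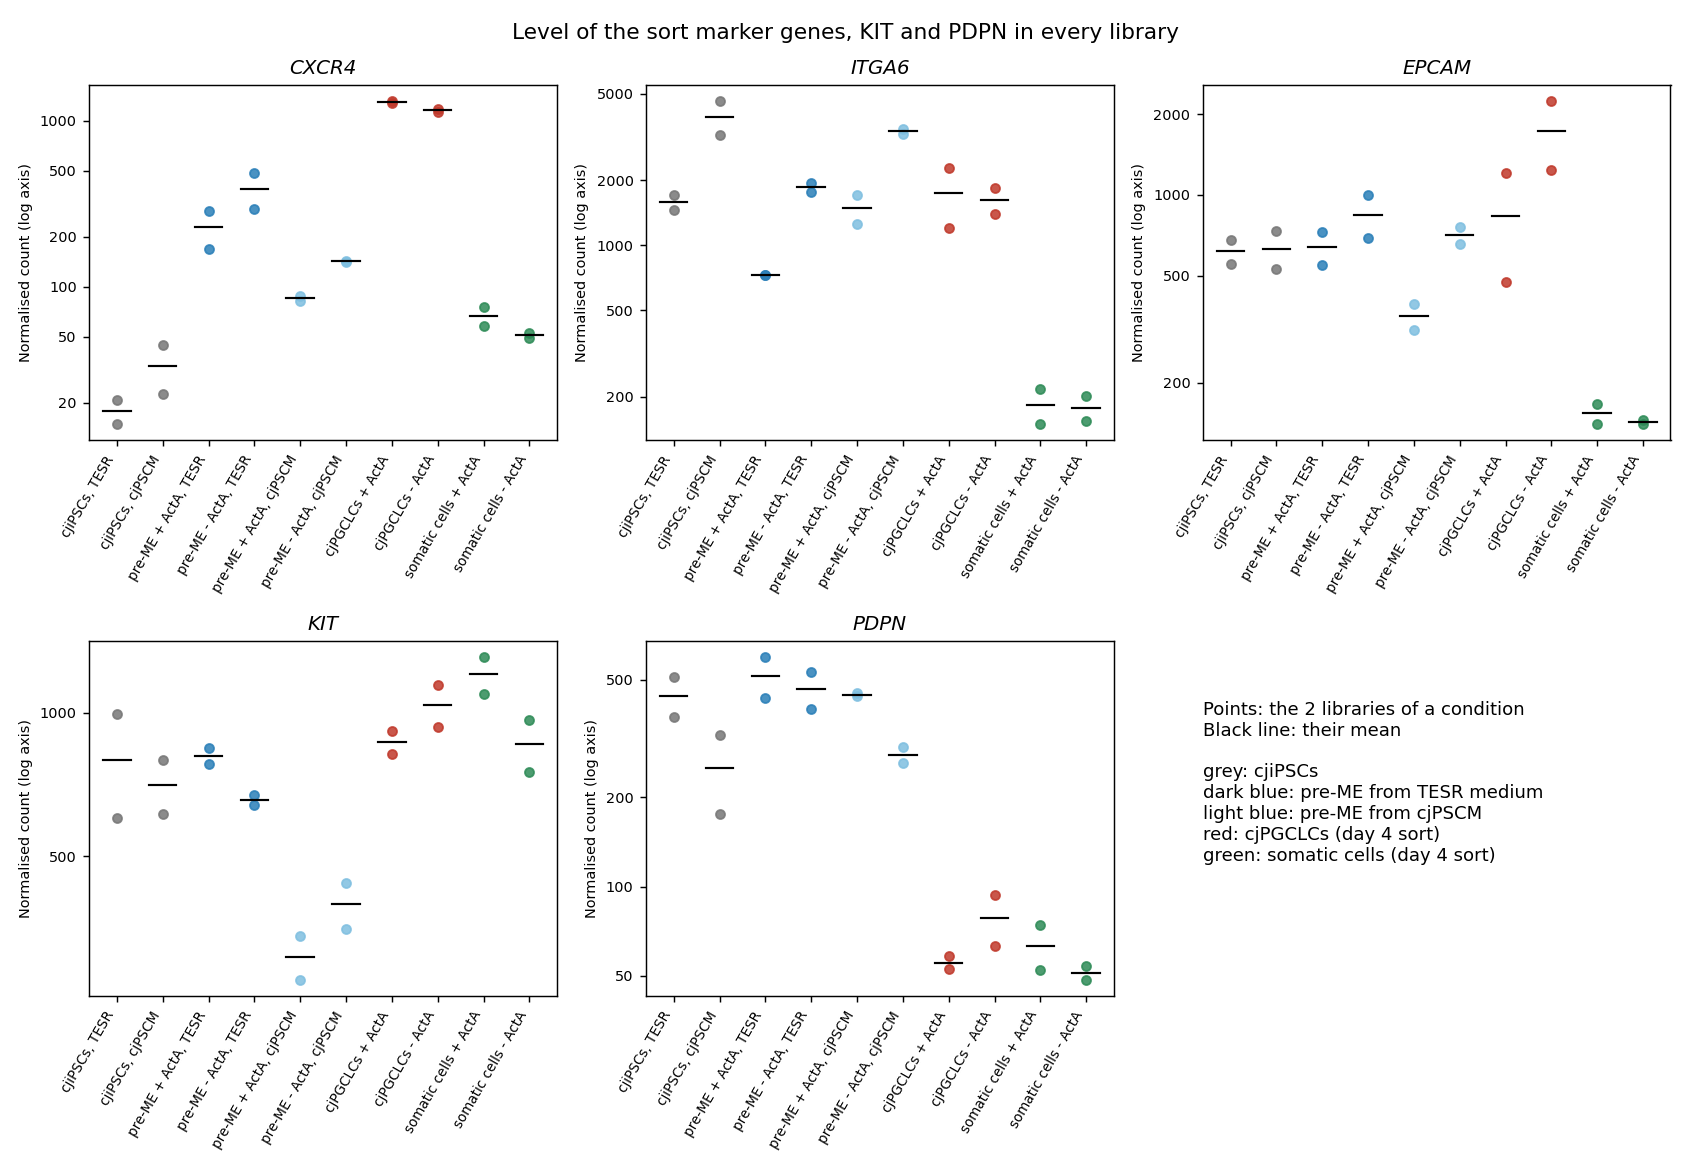
Normalised count (log axis) of CXCR4, ITGA6, EPCAM, KIT and PDPN in the 2 libraries of each of the 10 conditions (points) with their mean (black line). CXCR4 is at 1128 or more in the 4 cjPGCLC libraries and at 76.1 or less in the 4 somatic libraries, and ITGA6 and EPCAM drop in the somatic libraries. KIT and PDPN were not called between the sorted populations in either ActA condition.

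The first rise of CXCR4 differed between the media. With ActA it rose by 3.76 ± 0.33 (SE, n = 2 against 2) on the log2 scale in TESR cultures and by 1.43 ± 0.34 in cjPSCM cultures (adjusted p = 7.23e-07 and 0.00848, edgeR). Without ActA the increases were 4.53 ± 0.33 and 2.19 ± 0.32 (adjusted p = 8.08e-08 and 9.87e-05). The difference of the increases between the media was -2.33 ± 0.50 with ActA and -2.34 ± 0.49 without ActA (adjusted p = 0.0107 and 0.00885), so the rise was about 5.02-fold and 5.07-fold smaller in cjPSCM. These tests of a difference were added after the values were seen, and in fits of the libraries concerned alone neither passed (adjusted p = 0.127 and 0.0934). In cjPSCM with ActA the rise was no longer called without replicate 1 of the cjiPSCs (0.97, adjusted p = 0.190) or replicate 1 of the pre-ME (1.47, adjusted p = 0.0507). The difference between the media with ActA was lost without replicate 1 of the cjiPSCs in TESR medium (-2.04, adjusted p = 0.0503) or replicate 2 in cjPSCM (-1.87, adjusted p = 0.0502), and that without ActA was lost without the former (-2.05, adjusted p = 0.0872).

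ActA was added only during the pre-ME step, and CXCR4 was lower with it in both media. The difference was -0.77 ± 0.24 in TESR cultures and -0.76 ± 0.28 in cjPSCM cultures, and the libraries did not overlap, but neither passed the threshold (adjusted p = 0.0588 and 0.0633). In TESR cultures the difference was called when replicate 1 or 2 of the cjiPSCs in cjPSCM, replicate 2 of the pre-ME with ActA (-1.19) or replicate 1 of the pre-ME without ActA (-1.08) was left out. In cjPSCM cultures, 6 of the 20 fits without 1 library called it, with a value of -0.76 in each, and all 6 left out a library of other conditions. With the replicate number as a block both differences passed (adjusted p = 0.0406 and 0.0485). On day 4 the difference with ActA was 0.16 ± 0.24 in cjPGCLCs (95% confidence interval -0.34 to 0.66) and 0.39 ± 0.37 in somatic cells (-0.39 to 1.17). The step from pre-ME to cjPGCLCs was 0.92 ± 0.37 larger with ActA, which did not pass (adjusted p = 0.157).

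From pre-ME to cjPGCLCs, CXCR4 rose by a further 3.93 ± 0.28 with ActA and 3.01 ± 0.26 without ActA (adjusted p = 3.07e-08 and 2.27e-07). In somatic cells it differed from pre-ME by -0.36 ± 0.32 with ActA (adjusted p = 0.376) and fell by 1.51 on the log2 scale (SE 0.33, adjusted p = 0.00142) without ActA. CXCR4 is named for the gate by the treatment labels and the methods but not by the titles, and the part of the sort in these changes was not tested. The full path from cjiPSCs in cjPSCM to cjPGCLCs amounted to 5.36 ± 0.32 with ActA and 5.20 ± 0.32 without ActA, which is a fitted 41.0-fold and 36.7-fold.

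ITGA6 took another course, being lowest in somatic cells and lower in pre-ME with ActA than in the cjiPSCs of the same medium. In cjiPSCs it had 1708 and 1461 normalised counts in TESR medium, compared with 3224 and 4632 in cjPSCM, a difference of 1.28 ± 0.25 (adjusted p = 7.79e-04). In pre-ME from TESR cultures it was at 732 and 726 with ActA and at 1763 and 1935 without ActA. In pre-ME from cjPSCM cultures it was at 1259 and 1715 with ActA and at 3448 and 3264 without ActA.

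ITGA6 was thus lower in all pre-ME libraries with ActA than in those without ActA from the same medium. The difference was -1.34 ± 0.25 in TESR cultures and -1.20 ± 0.25 in cjPSCM cultures (adjusted p = 0.00218 and 0.00419), and the 2 differences were 0.15 ± 0.35 apart (adjusted p = 0.865, interval -0.60 to 0.89). In cjPSCM it was not called without replicate 1 of the pre-ME with ActA (-0.996, adjusted p = 0.0868). Against the cjiPSCs, ITGA6 fell in pre-ME with ActA by 1.11 on the log2 scale in TESR cultures and by 1.38 in cjPSCM cultures (SE 0.25 in both). Without ActA it differed from the cjiPSCs by 0.23 ± 0.25 and -0.19 ± 0.25, which did not pass.

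In cjPGCLCs the level of ITGA6 was 2277 and 1206 normalised counts with ActA and 1829 and 1401 without ActA. In somatic cells it was 218 and 149 with ActA and 201 and 155 without ActA. Every one of these 4 somatic libraries was below every other library of the series. The levels of cjPGCLCs overlapped with those of cjiPSCs in TESR medium and of pre-ME with ActA from cjPSCM.

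INTα6 is named for the gate by the titles and the methods but not by the treatment labels, and the part of the sort in the changes of ITGA6 from the unsorted pre-ME to the sorted cells was not tested. From pre-ME, ITGA6 fell in somatic cells by 3.03 on the log2 scale with ActA (SE 0.29, adjusted p = 5.40e-07) and fell by 4.28 without ActA (SE 0.30, adjusted p = 1.89e-08). In cjPGCLCs it differed from pre-ME by 0.24 ± 0.25 with ActA (adjusted p = 0.449) and fell by 1.06 (SE 0.25, adjusted p = 0.00289) without ActA. The former lay between -0.30 and 0.62 when 1 library was left out. The difference between these 2 steps was 1.30 ± 0.35 (adjusted p = 0.0460, a test added after the values were seen). It was close to the threshold and was lost with the replicate number as a block (1.28, adjusted p = 0.0521) and with size factors of DESeq2 (1.29, adjusted p = 0.0508), and 14 of the 20 fits that left out 1 library did not call it, with the smallest value of 0.77 without replicate 1 of the cjPGCLCs with ActA. Against cjiPSCs in cjPSCM, ITGA6 in cjPGCLCs differed by -1.15 on the log2 scale with ActA and by -1.25 without ActA (adjusted p = 0.00129 and 6.14e-04). In fits of the comparison's libraries alone 1 of these 2 calls was lost, at a similar value. In a RefSeq annotation of another marmoset assembly the gene overlaps the long non-coding RNA LOC103793734, which had 15.5 to 50.9 normalised counts in this series. No gene overlaps the other 4 genes there.

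EPCAM was at 315 to 996 normalised counts in all unsorted libraries. The cjiPSCs had 553 and 682 normalised counts of it in TESR medium and 531 and 731 when kept in cjPSCM. In pre-ME from TESR cultures it had 729 and 546 with ActA and 996 and 691 without ActA. In pre-ME from cjPSCM cultures it had 391 and 315 with ActA and 656 and 759.8 without ActA. No change from cjiPSCs to pre-ME passed the test, with the values between -0.81 ± 0.35 (cjPSCM with ActA, adjusted p = 0.119) and 0.47 ± 0.33 (TESR without ActA, adjusted p = 0.286). The first of these was called when either replicate of the cjPGCLCs with ActA was left out of the fit (-0.81 in both, adjusted p = 0.0461 and 0.0449).

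With ActA, EPCAM was lower in pre-ME from cjPSCM, with a difference of -1.01 ± 0.34 ( adjusted p = 0.0458). This call was lost in 12 of 20 fits that left out 1 library, with values between -1.20 and -0.86, and with size factors of DESeq2 (-0.995, adjusted p = 0.0505). In TESR cultures the difference was -0.40 ± 0.33 (adjusted p = 0.589).

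In cjPGCLCs EPCAM reached 1204 and 472 normalised counts with ActA and 2237 and 1234 without ActA, with replicate 1 above replicate 2 in both. In the somatic cells EPCAM had 139.9 and 167 with ActA and 141 and 145 without ActA. The somatic libraries were the 4 lowest of the series. Replicate 2 of the cjPGCLCs with ActA was below all 4 cjiPSC libraries and above both pre-ME libraries with ActA from cjPSCM.

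From pre-ME to cjPGCLCs EPCAM rose by 1.26 ± 0.35 with ActA and 1.29 ± 0.33 without ActA (adjusted p = 0.00670 and 0.00572). It fell in somatic cells by 1.21 on the log2 scale (SE 0.38, adjusted p = 0.0154) with ActA and fell by 2.33 (SE 0.39, adjusted p = 1.55e-04) without ActA. EpCAM is named for the gate in the labels, and the part of the sort in these changes was not tested. The rise rested on single libraries. It was 0.41 (adjusted p = 0.342) without replicate 1 of the cjPGCLCs with ActA and 1.09 (adjusted p = 0.0614) without replicate 2 of the pre-ME with ActA. In the condition without ActA it was 0.77 (adjusted p = 0.137) without replicate 1 of the cjPGCLCs and 1.17 (adjusted p = 0.0540) without replicate 1 of the pre-ME. The fall with ActA was not called without replicate 1 of the pre-ME (-1.04, adjusted p = 0.0960), replicate 1 (-1.10, adjusted p = 0.0908) or replicate 2 of the somatic cells (-1.35, adjusted p = 0.0520), whereas the fall without ActA was called in every fit.

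KIT and PDPN were in no gate, so their values were not chosen by the sort directly. KIT had 992 and 600.1 normalised counts in cjiPSCs in TESR medium, compared with 795 and 614 in cjPSCM. In pre-ME from TESR cultures it had 779 and 845 with ActA and 641 and 671 without ActA. In pre-ME from cjPSCM cultures it had 339.6 and 275 with ActA and 439.8 and 353 without ActA. These 4 libraries were the lowest of the series.

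KIT fell on the way from cjiPSCs to pre-ME in cjPSCM cultures, by 1.18 on the log2 scale with ActA (SE 0.22, adjusted p = 0.00173) and by 0.80 without ActA (SE 0.22, adjusted p = 0.00932). In fits of the comparison's libraries alone neither fall was called, at similar values. In TESR cultures KIT differed by 0.02 ± 0.21 with ActA and -0.28 ± 0.21 without ActA (adjusted p = 0.953 and 0.313). The difference between the media was -1.20 ± 0.31 with ActA (adjusted p = 0.0290, a test added after the values were seen) and -0.51 ± 0.30 without ActA (adjusted p = 0.333). The former was lost in 6 of 20 fits that left out 1 library, where it lay between -1.38 and -0.88, and these were the fits without either pre-ME library of each medium, replicate 2 of the cjiPSCs in TESR medium or replicate 1 in cjPSCM. The fall without ActA was lost without replicate 1 of the cjiPSCs (-0.57, adjusted p = 0.106) or replicate 2 of the pre-ME (-0.64, adjusted p = 0.0993). In TESR cultures without ActA, KIT fell by 0.61 (adjusted p = 0.0347) when replicate 2 of the cjiPSCs was left out.

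On day 4 KIT was high in both sorted populations. It had 817 and 914 normalised counts in cjPGCLCs with ActA and 932 and 1141 without ActA, and 1096 and 1309 in somatic cells with ActA and 749 and 965 without ActA. From pre-ME it rose by 1.49 ± 0.22 and 1.37 ± 0.22 in cjPGCLCs with and without ActA (adjusted p = 5.44e-05 and 1.25e-04). In somatic cells it rose by 1.95 ± 0.23 and 1.08 ± 0.22 (adjusted p = 3.95e-06 and 9.18e-04). Against cjiPSCs in cjPSCM the level in cjPGCLCs was 0.31 ± 0.22 higher with ActA (adjusted p = 0.245) and 0.57 ± 0.22 higher without ActA (adjusted p = 0.0356), and the latter was not called without replicate 2 of the cjiPSCs (0.37, adjusted p = 0.215) or replicate 2 of the cjPGCLCs (0.41, adjusted p = 0.234). In cjPSCM cultures the rise on day 4 thus came after a fall in pre-ME.

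PDPN fell on day 4, where KIT rose. Its levels were 372 and 509 normalised counts in cjiPSCs in TESR medium, compared with 175 and 326 in cjPSCM. In pre-ME from TESR cultures it had 597 and 433 with ActA and 532 and 397 without ActA. In pre-ME from cjPSCM cultures it had 449 and 439.6 with ActA and 295 and 261 without ActA.

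Only in cjPSCM cultures with ActA did the pre-ME step of PDPN pass the test, with a rise of 0.86 ± 0.26 (adjusted p = 0.0292), and whether it differed from the step in TESR cultures was tested with a difference of 0.62 ± 0.36 (adjusted p = 0.352). The rise was lost without replicate 1 of the cjiPSCs (0.48, adjusted p = 0.305), replicate 1 (0.84, adjusted p = 0.144) or replicate 2 (0.89, adjusted p = 0.0868) of the pre-ME with ActA. Without ActA the step in cjPSCM cultures was 0.21 ± 0.26 (adjusted p = 0.546), and it was called at 0.68 (adjusted p = 0.0360) when replicate 2 of the cjiPSCs was left out. In cjiPSCs PDPN was lower in cjPSCM, with a difference of -0.84 ± 0.26 (adjusted p = 0.0176), a call that was lost without replicate 2 in TESR medium (-0.64, adjusted p = 0.0959) or replicate 1 in cjPSCM (-0.45, adjusted p = 0.179).

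On day 4 PDPN was at 58.3 and 52.6 normalised counts in cjPGCLCs with ActA and at 93.4 and 63.0 without ActA. In somatic cells it was at 74.4 and 52.2 with ActA and at 48.4 and 54.1 without ActA. All 8 sorted libraries lay below the 12 unsorted ones. From pre-ME it fell in cjPGCLCs by 2.99 on the log2 scale with ActA (SE 0.30, adjusted p = 8.08e-07) and by 1.80 without ActA (SE 0.28, adjusted p = 9.44e-05). In somatic cells PDPN fell by 2.83 with ActA (SE 0.30, adjusted p = 1.83e-06) and by 2.46 without ActA (SE 0.32, adjusted p = 1.44e-05).

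**Figure D2:**
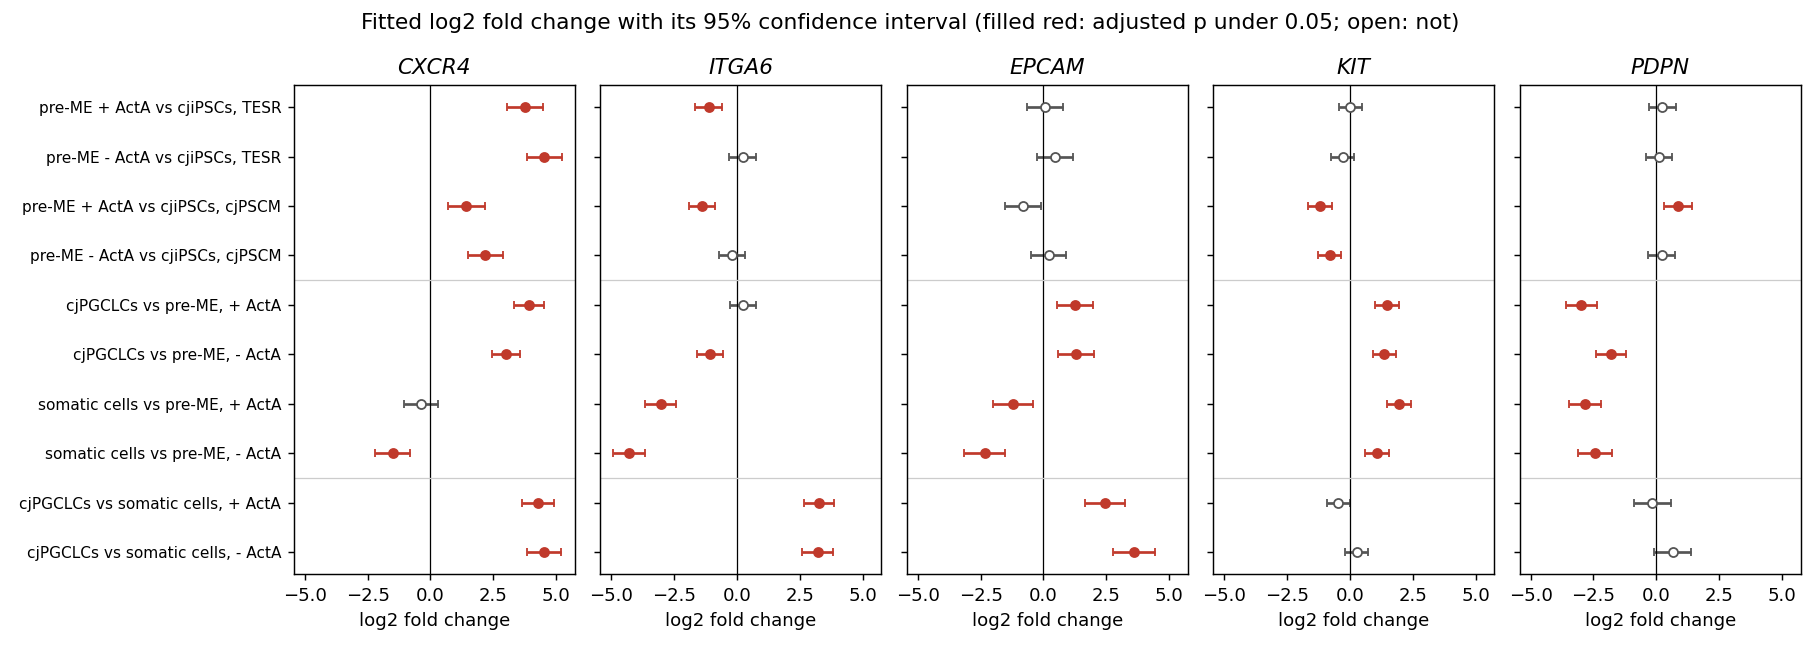
Fitted log2 fold change (x axis) of each gene in the 10 comparisons named on the y axis, as a point with its 95% confidence interval. Filled red points have an adjusted p under 0.05. CXCR4 is right of 0 at the pre-ME and the cjPGCLC step, ITGA6 and EPCAM are left of 0 at the somatic step, and KIT and PDPN move to the same side in both sorted populations and include 0 or lie close to it between them.

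The 5 genes together were set against the background of all tested genes. At the pre-ME step with ActA, 2 of the 5 changed in TESR cultures, where 34.5% of all tested genes did, and 4 of the 5 changed in cjPSCM cultures, where 17.7% did. None of the latter 4 calls held in a fit of those libraries alone, where their adjusted p lay between 0.0687 and 0.285. Without ActA it was 1 of the 5 in TESR cultures (36.6% of all) and 2 of the 5 in cjPSCM cultures (38.0% of all). Between the cjiPSC media 2 of the 5 differed, beside 36.2% of all genes. Between pre-ME with and without ActA 1 of the 5 differed in TESR cultures (8.84% of all) and 2 in cjPSCM cultures (20.9% of all). The difference of this effect between the media was called for 0 of the 5 by edgeR (0.399% of all), with 1 (KIT, -0.69 ± 0.31) at an unadjusted p under 0.05 and 0 by DESeq2. The induction differed between the media for 2 of the 5 with ActA (6.20% of all) and 1 without ActA (6.54% of all).

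The day 4 steps changed a large part of the transcriptome. From pre-ME to cjPGCLCs 4 of the 5 genes changed with ActA (48.4% of all) and 5 of the 5 without ActA (40.0% of all). From pre-ME to somatic cells it was again 4 of the 5 (48.0% of all) and 5 of the 5 (42.2% of all). From cjiPSCs to cjPGCLCs 3 of the 5 changed with ActA (50.9% of all) and 5 without ActA (52.5% of all). CXCR4, ITGA6 and EPCAM, the genes of the proteins named for the gates, were compared here between sorted and unsorted cells. These counts are therefore no finding about them, and the part of the sort was not tested. The 4 comparisons with pre-ME share their pre-ME libraries in pairs, so they are not independent of each other. The step to cjPGCLCs differed between the ActA conditions for 1 of the 5 (4.48% of all). For the step to somatic cells edgeR called 0 of the 5 (2.87% of all), with 3 (CXCR4, ITGA6 and KIT) at an unadjusted p under 0.05 and 1 (ITGA6, 1.25 ± 0.40) by DESeq2.

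Between cjPGCLCs and somatic cells 3 of the 5 genes were higher in both ActA conditions, where 3.68% of all genes with ActA and 6.67% without ActA were. They were CXCR4, ITGA6 and EPCAM, the genes of the proteins named for the gates, so this count is a check of the sort at the RNA level and no finding. CXCR4 was 4.29 ± 0.30 higher with ActA and 4.52 ± 0.31 without ActA on the log2 scale. It was number 107 and number 130 of the 15795 tested genes by fold change. The lowest cjPGCLC library had 16.8 and 21.3 times the normalised count of the highest somatic library.

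ITGA6 stood at number 193 with ActA and at 255 without ActA, and its closest libraries were 5.54 and 6.98 times apart. EPCAM stood at number 311 and at 197, with its closest libraries 2.83 and 8.49 times apart. With ActA the difference of EPCAM was called in all 20 fits without 1 library, but ranged from 1.63 without replicate 1 of the cjPGCLCs to 2.97 without their replicate 2 on the log2 scale. By this measure CXCR4 separated the sorted libraries most widely of the 5 genes in both ActA conditions. Whether the separation differed between the ActA conditions was tested for each gene, and edgeR called 0 of the 5, with 2 (EPCAM and KIT) at an unadjusted p under 0.05 and 0 with DESeq2, beside 0.0633% of all genes called. The difference was -1.16 ± 0.54 for EPCAM (adjusted p = 0.793) and -0.75 ± 0.31 for KIT (adjusted p = 0.670). That of EPCAM lay between -1.99 and -0.64 when 1 library was left out.

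KIT was not called between the sorted cells. It differed by -0.47 ± 0.22 in cjPGCLCs against somatic cells with ActA (95% confidence interval -0.92 to -0.01, adjusted p = 0.301) and by 0.28 ± 0.22 without ActA (-0.18 to 0.74, adjusted p = 0.530). It ranked number 13970 and number 3605. In a fit of the 4 sorted libraries with ActA alone the former difference was called (-0.47, adjusted p = 0.0248). PDPN differed by -0.16 ± 0.34 with ActA (-0.89 to 0.57, adjusted p = 0.907) and by 0.65 ± 0.35 without ActA (-0.08 to 1.39, adjusted p = 0.308), at number 11379 and number 1796. When 1 library was left out these values of PDPN lay between -0.40 and 0.11 with ActA and between 0.30 and 0.86 without ActA. A p that missed the threshold does not show that the levels were equal.

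**Figure D3:**
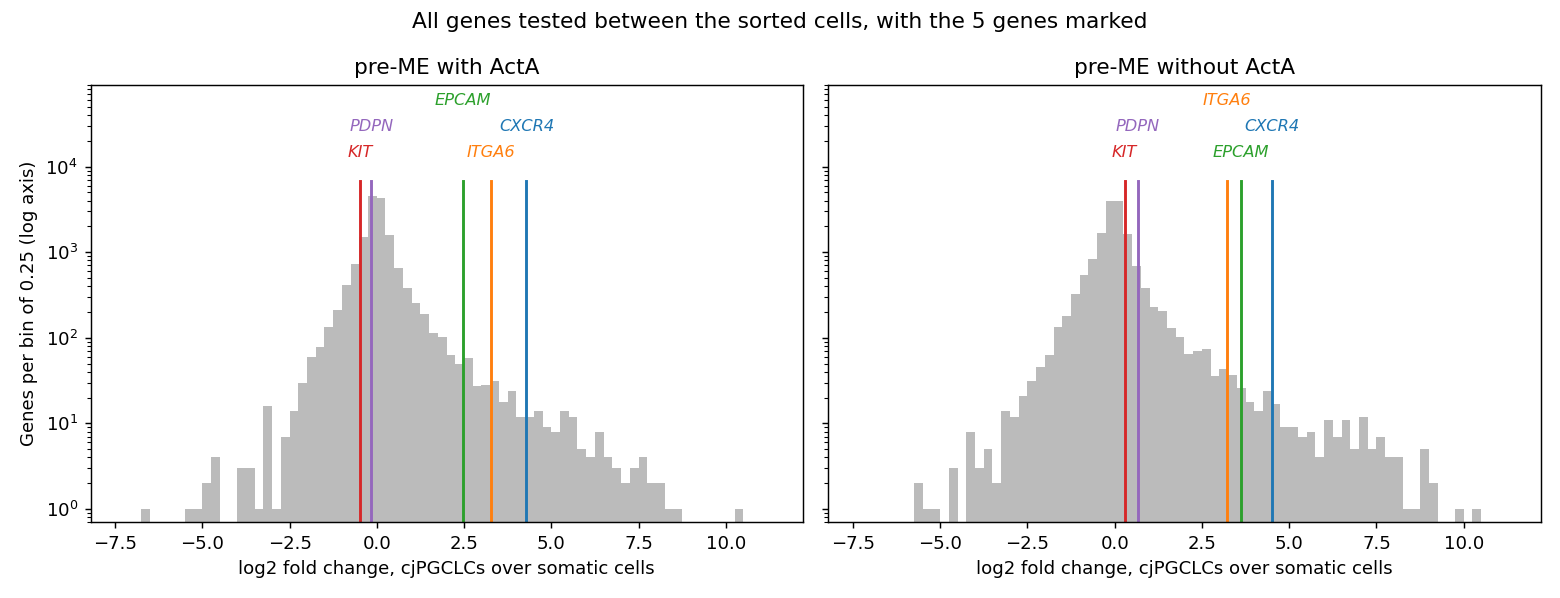
Number of genes (log axis) per bin of 0.25 in the log2 fold change of cjPGCLCs over somatic cells, for the 15795 tested genes with ActA (left) and without ActA (right). Vertical lines mark the 5 genes. CXCR4, ITGA6 and EPCAM lie in the right tail between 2.47 and 4.52, and KIT and PDPN lie in the body of the distribution between -0.47 and 0.65.

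Within a sorted population ActA in the earlier step changed none of the 5 genes by the test. In cjPGCLCs edgeR called 0 of the 5 (2.53% of all), with 1 at an unadjusted p under 0.05 and 1 by DESeq2, which was EPCAM in both. It differed by -1.05 ± 0.33 between the conditions (adjusted p = 0.121, and 0.0492 by DESeq2), and without replicate 1 of the cjPGCLCs with ActA the difference was -1.89 (adjusted p = 0.0248). In somatic cells edgeR called 0 of the 5 (0.0253% of all), with 1 (KIT, 0.49 ± 0.22) at an unadjusted p under 0.05 and 0 by DESeq2.

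The partners of CXCR4 are its ligand CXCL12 and ACKR3, the scavenger receptor of the same ligand. Of the 14 tested genes around the receptor, 1 was lower in cjPGCLCs than in somatic cells with ActA (1.16% of all genes). Without ActA 1 was higher (6.67% of all) and 1 lower (2.97% of all). The medians were -0.02 and 0.08, beside 0.01 and 0 for all tested genes. CXCL12 had 77.8 and 34.1 normalised counts in cjPGCLCs with ActA against 108 and 79.0 in somatic cells, and 12.9 and 6.30 against 76.1 and 44.9 without ActA. The difference was -0.68 ± 0.37 with ActA (adjusted p = 0.412) and -2.47 ± 0.47 without ActA (adjusted p = 0.00249), and the 2 were not called different (1.79 ± 0.60, adjusted p = 0.455). ACKR3 had 351 and 471 against 946 and 1108 with ActA, a difference of -1.32 ± 0.24 (adjusted p = 0.00320), and without ActA it had 671 and 591 against 851 and 865, a difference of -0.42 ± 0.24 (adjusted p = 0.339). The 2 differences were not called different (-0.90 ± 0.34, adjusted p = 0.584). CXCL12 also differed between the cjiPSC media, with 96.4 and 65.5 in TESR medium against 1.88 and 1.48 in cjPSCM, the latter from 2 counts and 1 count.

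ITGB1, the β1 partner of the α6 chain, was not called between the sorted cells. It lay between 8661 and 11224 normalised counts in the 8 sorted libraries, and the difference between cjPGCLCs and somatic cells was 0.16 ± 0.13 with ActA and -0.01 ± 0.13 without ActA (adjusted p = 0.681 and 0.987). ITGB4, the gene of the β4 partner, had at most 5 counts in any library and was not tested. Of the 18 tested partners and laminins, 4 were higher in cjPGCLCs than in somatic cells with ActA (3.68% of all genes). Without ActA 5 were higher (6.67% of all) and 1 lower (2.97% of all), and the medians were 0.43 and 0.47.

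A laminin chain was among those higher. LAMA4, the α4 chain, had 3559 and 3648 normalised counts in cjPGCLCs with ActA against 759.6 and 651 in somatic cells, and 2297 and 2499.6 against 542 and 664 without ActA. The differences were 2.36 ± 0.21 and 2.00 ± 0.21 (adjusted p = 3.68e-06 and 8.52e-06). The tetraspanins CD151 and CD9, which associate with the integrin, did not pass in either condition.

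Of 12 tested partners of EPCAM and genes of the epithelial junction, 4 were higher in cjPGCLCs with ActA (3.68% of all genes). Without ActA 5 were higher (6.67% of all) and 1 lower (2.97% of all). The rest did not pass, and the medians were 0.57 and 1.33. CLDN7, a claudin that binds EPCAM, had 22.0 and 9.95 normalised counts in cjPGCLCs with ActA and 50.1 and 20.5 without ActA, against 0 to 2.98 in somatic cells. SPINT2, an inhibitor of the protease that cleaves EPCAM, had 1017 and 584 with ActA and 1615 and 1113 without ActA, against 258 to 332 in somatic cells. Its differences were 1.56 ± 0.24 and 2.24 ± 0.25 (adjusted p = 0.00103 and 1.72e-05). The related SPINT1 was 1.63 ± 0.28 and 1.45 ± 0.28 higher (adjusted p = 0.00206 and 0.00262).

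ESRP1, an epithelial splicing regulator, had 131.8 and 44.1 normalised counts in cjPGCLCs with ActA and 324 and 202 without ActA, and no more than 3.54 in somatic cells. The spread between the cjPGCLC replicates was in the same direction for EPCAM, CLDN7, SPINT2 and ESRP1, each of which was higher in replicate 1 than in replicate 2 in both ActA conditions, while SPINT1 was higher in replicate 1 with ActA (3015 and 2571) and lower without ActA (2639 and 2831). Replicate 1 was also the higher in both conditions for FOXA2, HNF4A and APOA1 of the endoderm list, and the genes of this comparison of replicates were chosen after their values were seen. HNF4A, for instance, had 418 and 131 with ActA and 835 and 446 without ActA. Replicate 1 of the cjPGCLCs also had more reads on genes, at 12734149 against 7504026 with ActA and 14216460 against 6708740 without ActA. The part of depth and of these genes in the spread of EPCAM was not tested. CDH1, the E-cadherin gene, did not go along with EPCAM, as it had 1710.5 and 2012 normalised counts in cjiPSCs in TESR medium and 0 to 7.11 in all libraries of cjPSCM cultures and sorted cells.

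KITLG, the gene of the KIT ligand, was highest in pre-ME from TESR cultures with ActA. It was at 437 and 453 normalised counts in pre-ME from TESR cultures with ActA against 175 and 195 without ActA, and at 184 and 240.2 against 60.7 and 69.3 in cjPSCM cultures. With ActA it was 1.27 ± 0.25 and 1.69 ± 0.27 higher (adjusted p = 0.00303 and 6.04e-04). By day 4 it was at 18.5 to 53.2 in all sorted libraries, where recombinant SCF was in the medium, and cjPGCLCs differed from somatic cells by 0.07 ± 0.37 and 0.61 ± 0.37 (adjusted p = 0.969 and 0.391).

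Of the 18 tested genes of KIT signalling and its relatives, 1 was higher in cjPGCLCs than in somatic cells with ActA (3.68% of all genes). Without ActA 1 was higher (6.67% of all) and 1 lower (2.97% of all). The medians were 0.05 and 0.02. From pre-ME to cjPGCLCs 9 rose and 2 fell with ActA, where 48.4% of all tested genes changed, and 11 rose and 1 fell without ActA, where 40.0% did. In somatic cells 8 rose and 3 fell (48.0% of all), and 9 rose and 2 fell (42.2% of all). The counts in the cjPGCLC and somatic steps share their pre-ME libraries. PDGFRA, a receptor tyrosine kinase of the KIT family that marks mesoderm, rose more than KIT. It went from 46.7 to 61.3 normalised counts in pre-ME of cjPSCM cultures to 3481 to 8217 in the 8 sorted libraries, by 6.30 to 6.92 on the log2 scale in the 4 steps, with no call between cjPGCLCs and somatic cells.

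**Figure D4:**
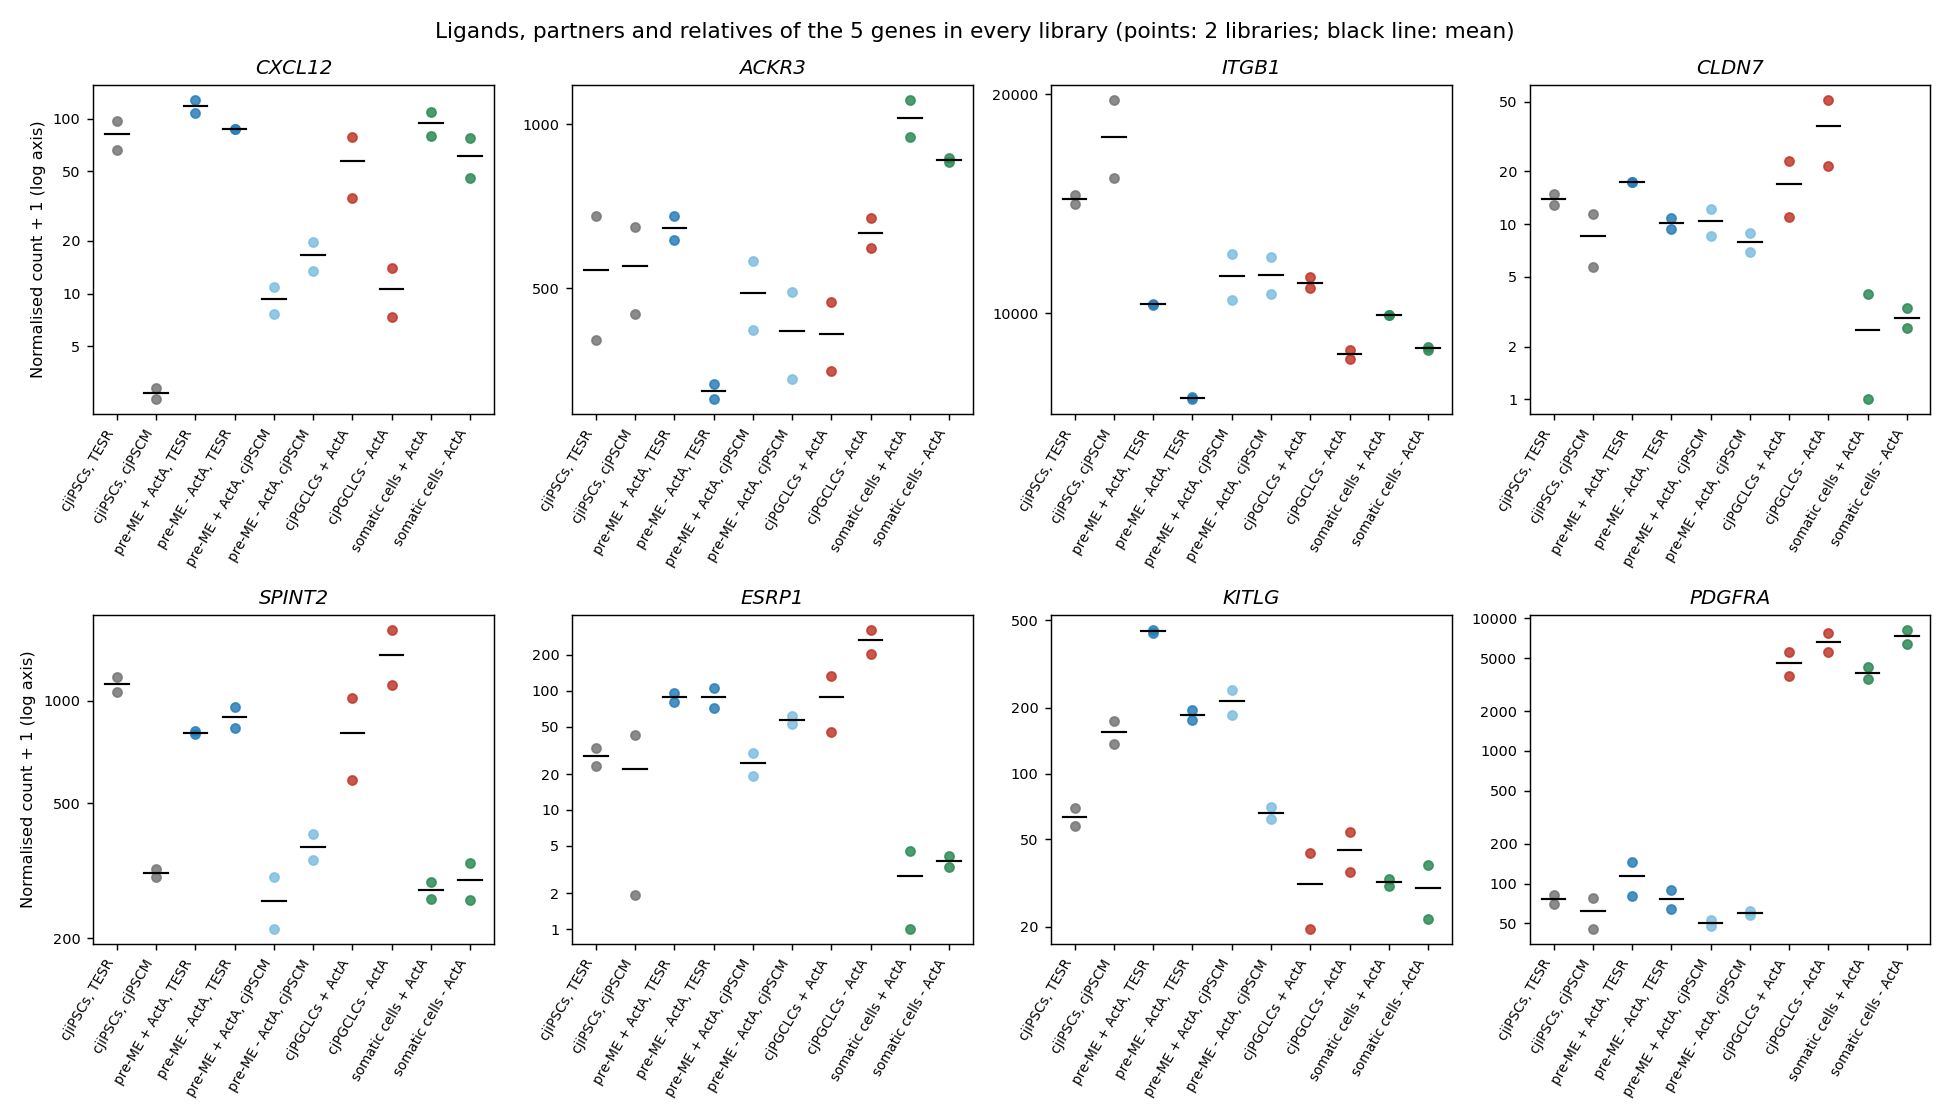
Normalised count plus 1 (log axis) of the CXCR4 ligand CXCL12, its scavenger receptor ACKR3, the integrin partner ITGB1, the epithelial genes CLDN7, SPINT2 and ESRP1, the KIT ligand KITLG and the KIT relative PDGFRA in the 2 libraries of each condition (points) with their mean (black line). CLDN7, SPINT2 and ESRP1 separate cjPGCLC from somatic libraries, ITGB1 and PDGFRA do not, and KITLG is highest in pre-ME from TESR cultures with ActA.

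The 8 tested partners of PDPN had median differences of 0.16 and 0.33 between the sorted cells. With ActA 0 of the 8 were called, where 3.68% of all genes were higher and 1.16% lower. Without ActA, EZR and HSPA9 were higher in cjPGCLCs (6.67% of all genes) and the hyaluronan receptor gene CD44 was lower (2.97% of all). At the somatic step 2 of the 8 rose and 3 fell with ActA (48.0% of all genes changed), and 4 rose and 3 fell without ActA (42.2% of all).

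Other surface proteins that are used to sort stem or germ cells gave a further view of the split. Of 21 tested, 4 were higher (3.68% of all genes) and 1 lower (1.16% of all) in cjPGCLCs with ActA, and 7 higher (6.67% of all) and 1 lower (2.97% of all) without ActA. FZD5, a WNT receptor, was higher in all cjPGCLC libraries. It had 165 and 233 normalised counts in cjPGCLCs with ActA and 224 and 317 without ActA, against 18.4 to 37.1 in somatic cells, which is a difference of 2.90 ± 0.47 and 3.22 ± 0.47 (adjusted p = 0.00144 and 2.42e-04). From pre-ME to somatic cells it changed by -2.77 and -2.74 on the log2 scale, and it did not pass in cjPGCLCs. ALPL, the gene of the alkaline phosphatase of stem and germ cells, and THY1 were not called between the sorted cells and fell in all 4 steps from pre-ME. PECAM1 was 0.80 higher in cjPGCLCs without ActA (adjusted p = 0.0193) and 0.42 higher with ActA (adjusted p = 0.336). CD38 had at most 3 counts in any sorted library.

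Over the 20 libraries the 5 genes did not share a pattern. On log2 levels with a pseudocount of 1, Pearson's r was highest for ITGA6 with EPCAM (0.78), followed by CXCR4 with EPCAM (0.54) and ITGA6 with PDPN (0.51). It was lowest for KIT with PDPN (-0.60), and it was 0.18 for CXCR4 with ITGA6, the genes of the stained pair. These values describe 20 libraries that come from the same line, fall into 10 conditions and differ in depth.

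Among 12498 genes with a symbol and a mean of at least 10 normalised counts, the pattern of CXCR4 was most closely matched by GPNMB (r = 0.90), CRB3 (0.88) and SLC7A2 (0.86). GPNMB is a membrane glycoprotein, CRB3 a component of the apical polarity complex and SLC7A2 an amino acid transporter. The mean level of GPNMB was 509.96 normalised counts in cjPGCLCs with ActA and 456 without ActA, against 22.5 and 22.7 in somatic cells. ITGA6 was followed by MYEF2, NRCAM and ZDHHC12 (0.90, 0.90 and 0.89). EPCAM was followed by TJP3 (0.93) and CGN (0.92), both of tight junctions, and by the phosphatase gene PTPN6 (0.91). KIT was followed by KPNA1, SUCO and EXOC6B (0.91, 0.89 and 0.89), and PDPN by HDHD5, DCTPP1 and the glucose transporter gene SLC2A1 (0.98, 0.97 and 0.97). With Spearman's correlation these matches moved for all 5 genes. For CXCR4 it was higher with CRB3 (0.83) than with GPNMB (0.81), and for EPCAM higher with PTPN6 (0.91) than with TJP3 (0.88).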

How the data were processed

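Poly(A) RNA of 20 libraries from 10 conditions, 2 each, was sequenced. Per the labels and methods, the authors checked reads with FastQC 0.11.8, aligned them to calJac4 with STAR 2.7.0a and counted them per gene with HTSeq 0.11. The deposited counts are whole reads per gene. The deposited signal values are those counts divided by DESeq2 size factors by the authors. The annotation release and strand setting are not given in the sources used here. The 4 rows without a gene were left out (10.6% to 23.2% of reads had no feature, at most 0.350% were ambiguous and at most 0.00295% lay in unassigned gene rows).

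Counts were fitted with edgeR 4.0.16 in R 4.3.3 (TMM, quasi-likelihood, filterByExpr by condition, all libraries, 10 residual degrees of freedom), with Benjamini-Hochberg adjustment over 15795 genes. Intervals are 95%. Levels and correlations used the deposited values with pandas 2.3.3 in Python 3.11.15, and plots matplotlib 3.10.9. The scripts were tested on simulated data. The members and gene lists were chosen with earlier results of these data known. Named genes were the members, listed ligands, partners and markers, the 2 genes per list with the largest change each way between sorted cells, and the 3 genes with the highest Pearson's r to each member among those with a mean of at least 10. Other list genes were named after their values were seen. A RefSeq table of another assembly, calJac240_pri, gave names (21267 found) and neighbours only. Alternatives were DESeq2 1.42.0, DESeq2 size factors, other filters, the comparison's libraries alone, a replicate block and each library left out. Spearman's correlation was also tried for the genes matched by pattern. The interactions of the medium with induction and of ActA with the day 4 steps, and a crossed block, were added after the data were seen. Some items of the lists are not reported here.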

Additional observations from a re-analysis of the deposited data

Results flagged for a closer look

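In 4 cases a change differed between culture conditions by the test of the difference itself (edgeR, 2 libraries per condition). The increase of CXCR4 from cjiPSCs to pre-ME was smaller in cjPSCM than in TESR cultures, by -2.33 ± 0.50 on the log2 scale with ActA (adjusted p = 0.0107) and -2.34 ± 0.49 without ActA (adjusted p = 0.00885). The change of KIT over the same step with ActA differed between the media by -1.20 ± 0.31 (adjusted p = 0.0290). None of these 3 was called in fits of the comparison's own libraries (adjusted p = 0.127 and 0.0934 for CXCR4 and 0.222 for KIT). Without 1 library the CXCR4 differences were lost in 2 and 1 of 20 fits and that of KIT in 6, with an adjusted p of up to 0.124. The change of ITGA6 from pre-ME to cjPGCLCs differed between the ActA conditions by 1.30 ± 0.35 (adjusted p = 0.0460), a call lost with a replicate block (1.28), with size factors of DESeq2 (1.29) and in 14 of 20 fits without 1 library. No condition had the 4 samples that a check for outlying libraries needs.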

How the results depend on the processing

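No called difference of the 5 genes changed sign under the alternatives tried, whereas some differences that were not called did, among them those of KIT, PDPN and EPCAM whose ranges below span 0. Of the 115 gene and comparison pairs, 113 kept their call with DESeq2, 113 with size factors of DESeq2, 115 with a filter at a mean of 1 CPM, 112 with a replicate block, 99 with no filter and 93 in fits of the comparison's own libraries, and 2221 of 2300 fits without 1 library kept it. CXCR4, ITGA6 and EPCAM kept their calls between sorted cells under all of these. The causes of the changes below were not tested.

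With no filter on low counts, CXCR4 between cjiPSC media (0.87), EPCAM in pre-ME of TESR without ActA (0.50) and of cjPSCM with ActA (-0.81), the ActA differences of CXCR4 (-0.76 and -0.79) and PDPN in cjPSCM (0.62), EPCAM between cjPGCLC conditions (-1.04) and from cjiPSCs to cjPGCLCs with ActA (0.43) were among the 16 pairs that became calls. In fits of the comparison's libraries alone, calls were lost for PDPN between media (-0.82), in cjPSCM pre-ME with ActA for CXCR4 (1.39), ITGA6 (-1.38), KIT (-1.16) and PDPN (0.86), without ActA for KIT (-0.76), for ITGA6 (-1.13) and KIT (0.59) from cjiPSCs to cjPGCLCs, and for the induction differences of CXCR4 (-2.32 and -2.38) and KIT (-1.19). There, the ActA differences of KIT in TESR (0.29), CXCR4 (-0.75) and PDPN (0.66) in cjPSCM and KIT between sorted cells with ActA (-0.47) were among the 11 that became calls. EPCAM between pre-ME of cjPSCM (-0.995) and the ITGA6 step difference (1.29) were lost with size factors of DESeq2, and EPCAM between cjPGCLC conditions (-1.05) and the difference of the ITGA6 somatic step between ActA conditions (1.23) were called by DESeq2.

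With the replicate number as a block, the ActA differences of CXCR4 became calls (-0.77 and -0.75) and the ITGA6 step difference was lost (1.28), with no other call changed. The numbers mark no shared animal, and same-numbered libraries' deviations correlated at -0.26 to 0.37. For the 3 comparisons under -0.1, a crossed replicate block changed 0 of 15 calls.

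Without 1 library each, values ranged as follows. Between media, CXCR4 lay at 0.43 to 1.36 and PDPN at -1.31 to -0.45. In pre-ME of TESR without ActA, KIT lay at -0.61 to 0.16. In pre-ME of cjPSCM with ActA, CXCR4 lay at 0.97 to 1.90, EPCAM at -1.01 to -0.58 and PDPN at 0.48 to 1.34, and without ActA KIT at -0.98 to -0.57 and PDPN at -0.18 to 0.68. ActA differences were -1.19 to -0.37 for CXCR4 in TESR, and in cjPSCM -0.79 to -0.71 for CXCR4, -1.42 to -0.996 for ITGA6, -1.20 to -0.86 for EPCAM and 0.56 to 0.74 for PDPN. EPCAM lay at 0.41 to 1.76 and 0.77 to 1.62 for cjPGCLCs over pre-ME, -1.38 to -1.04 for somatic cells with ActA, -1.89 to -0.53 between cjPGCLC conditions and -0.40 to 0.95 for cjPGCLCs with ActA over cjiPSCs. KIT in cjPGCLCs without ActA over cjiPSCs lay at 0.37 to 0.78. The induction differences lay at -2.80 to -1.87 and -2.81 to -1.87 for CXCR4 and -1.65 to -0.88 for KIT, and the ITGA6 step difference at 0.77 to 1.71. The smallest count of a member in a library was 14, for CXCR4 in cjiPSCs in TESR medium.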
